A study of Mus musculus with 6 samples.

Results

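Fcna and Fcnb are the 2 ficolin genes of the mouse, and they were taken by name from the 51912 gene identifiers counted in 6 RNA-seq libraries. Both were chosen because their read counts differed between the 2 sorted populations compared here, so their levels are given as a description, with no test. The CD206+ group holds GFP+CD206+ cells and the CD206- group GFP+CD206- cells, with 3 libraries each. Every library came from E10.5 MacGreen embryos, a strain that carries a Csf1r-EGFP transgene, and from the aorta-gonad-mesonephros (AGM), the embryonic region around the dorsal aorta where haematopoietic stem cells arise. Cells of 3 to 5 AGM were pooled per library, and the embryos came from 3 independent litters. Replicates are numbered 1 to 3 in each population after the AGM number in the titles. The labels do not state that equal numbers mark the same litter, so the libraries were not treated as pairs. CD206 is the mannose receptor, encoded by Mrc1. The Csf1r promoter, which drives the EGFP in both groups, is known to be active in monocytes and granulocytic cells as well as in macrophages, so the GFP gate alone does not separate these. Libraries held 16730846 to 18214283 reads assigned to genes, and 16007 to 17745 genes had at least 1 read.

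Ficolins are secreted lectins with a collagen-like stalk and a fibrinogen-like domain that binds acetylated sugars on microbes and dying cells. Together with the proteases Masp1 and Masp2 they start the lectin pathway of complement, in which C4 and C2 are cleaved and C3 is activated. In adult mice ficolin A, the product of Fcna, is a plasma protein made in liver and by tissue macrophages, while ficolin B, the product of Fcnb, is made by immature myeloid cells of the bone marrow.

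Both genes lie on the minus strand of chromosome 2 (GRCm38). Fcna (ENSMUSG00000026938.10) spans chr2:25624666-25628030 and its 10 exons cover 1374 bases. Fcnb (ENSMUSG00000026835.15) spans chr2:28076378-28084885, 2.45 Mb away, and its 9 exons cover 1339 bases. The coding sequences, of 1005 bases for Fcna and 945 bases for Fcnb in GENCODE M21, aligned over 940 bases, of which 70.1% were identical. The longest identical run was 19 bases. It is shown because it bears on whether reads of one ficolin could be counted for the other, in capitals within 79 bases of each coding sequence, which start at base 816 of Fcna and base 756 of Fcnb.
Fcna: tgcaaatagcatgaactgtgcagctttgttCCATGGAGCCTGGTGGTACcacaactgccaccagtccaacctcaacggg
Fcnb: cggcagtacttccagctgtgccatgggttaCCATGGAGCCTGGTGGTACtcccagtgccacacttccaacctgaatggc
No stretch of 31 bases was shared between the 2 transcripts. Of 1344 such stretches in the Fcna transcript, 37 (2.75%) also occurred in another gene, all as the reverse complement of the antisense gene Fcnaos, and none of 1140 in the Fcnb transcript did. Fcnaos shares 90 of the 1374 Fcna exon bases, and the file headers give no strand setting, so reads on those bases cannot be assigned to either gene by strand. It held 17 reads over the 6 libraries.

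The promoters are shown because both genes differed between the populations. Each was taken as a 300-base window from 250 bases before a RefSeq start to 50 bases after it (GRCm38.p6, minus strand). Printed is the part upstream of the gene as counted here, 194 bases for Fcna at chr2:25628031-25628224 and 243 bases for Fcnb at chr2:28084886-28085128. RefSeq's Fcna reaches chr2:25635440, 7410 bases further upstream than the gene as counted here, and no window was taken there. Capitals mark matches to 3 myeloid factor motifs, GAGGAA (PU.1), TTNNGCAA (C/EBP) and TGCTGAC (MAF).
Fcna promoter: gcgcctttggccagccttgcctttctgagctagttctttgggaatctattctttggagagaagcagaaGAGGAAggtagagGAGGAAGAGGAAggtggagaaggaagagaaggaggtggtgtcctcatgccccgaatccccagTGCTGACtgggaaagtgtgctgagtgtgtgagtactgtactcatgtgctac
Fcnb promoter: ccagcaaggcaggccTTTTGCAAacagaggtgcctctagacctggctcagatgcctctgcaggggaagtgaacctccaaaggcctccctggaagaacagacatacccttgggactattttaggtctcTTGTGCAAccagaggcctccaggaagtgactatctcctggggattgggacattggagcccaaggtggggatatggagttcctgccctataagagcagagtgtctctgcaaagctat
In the whole windows, Fcna held 4 GAGGAA matches, of which the one at base 42 downstream of the start is not printed, and Fcnb held 0. At least 1 such match occurred in 28.3% of 32817 RefSeq promoters, and at least 4 in 0.125%, with both strands searched. TTNNGCAA matched at 2 places in Fcnb, 235 and 123 bases upstream of the RefSeq start, and at 0 in Fcna. It matched at least once in 10.8% of all promoters and at 2 or more places in 0.942%. TGCTGAC matched at 1 place in Fcna, at 0 in Fcnb, and in 4.67% of all promoters. No match overlapped another. Neither window held the letters AGATAA of a GATA site, which occur in 11.2% of promoters, nor the RUNX motif TGTGGT (16.8%), the AP-1 motif TGANTCA (7.81%) or the TATA box letters TATAAA (13.6%). Only these letters were searched, so a count of 0 does not show that other forms of a site are absent. The printed Fcnb sequence holds GGAA and TATAAG, for example. The motifs were picked with the sequences in view, so the shares are a description only, and a match does not show that a factor binds.

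Fcna was the ficolin gene of the CD206+ cells. It had 1268, 1650 and 1978 reads in the CD206+ libraries of replicates 1, 2 and 3, against 21, 58 and 6 reads in the CD206- libraries. On the CPM scale, which divides reads by library totals adjusted with the trimmed mean of M values (TMM), this was 77.4, 94.4 and 114 CPM in CD206+ cells, against 1.14, 3.35 and 0.338 CPM in CD206- cells. All CD206+ libraries were far above all CD206- libraries, and the CD206- library of replicate 3 was the lowest. Among 12668 genes with enough reads to test, the groups did not overlap for 24.6%, and 12.8% had all CD206+ libraries above all CD206- libraries.

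The mean was 95.3 ± 18.4 CPM in CD206+ cells and 1.61 ± 1.56 CPM in CD206- cells (SD, n = 3 each), a 59.2-fold ratio of means (log2 5.89). The log2 ratio of means was 5.22 without both libraries of replicate 3, 6.98 without those of replicate 2 and 7.01 without the CD206- library of replicate 2. In bulk RNA, fewer cells that express a gene and less of its RNA per cell cannot be told apart, so the CD206- level may be read either way.

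Fcnb was read in the CD206- cells and in none of the CD206+ libraries. The CD206+ libraries of replicates 1, 2 and 3 held 0 Fcnb reads each, against 99, 217 and 339 reads in the CD206- libraries. In CPM, the CD206- levels were 5.38, 12.5 and 19.1, a mean of 12.3 ± 6.85 (SD, n = 3). Every CD206- library was above every CD206+ library, and the CD206- library of replicate 1 was the lowest of its group. All CD206- libraries lay above all CD206+ libraries for 11.8% of tested genes. Taking 3 reads over the CD206+ group as the limit that 0 reads allow, Fcnb was at least 210-fold lower in CD206+ than in CD206- cells (a log2 bound of 7.72, or 6.70 without both libraries of replicate 3), and the limit for a single CD206+ library was between 0.172 and 0.183 CPM. These limits, like the intervals below, cover counting error only.

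**Figure D1:**
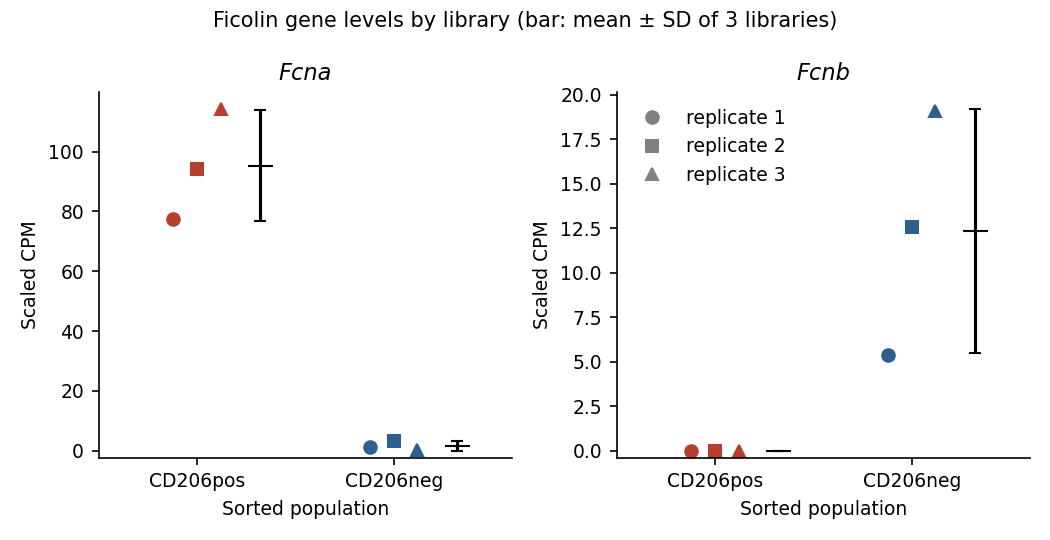
Scaled CPM of Fcna and Fcnb in each library, CD206pos left of CD206neg in each panel, with marker shapes for the replicate and a bar for the mean ± SD of 3 libraries. The CD206pos libraries lie at 77.4 to 114 CPM for Fcna and at 0 for Fcnb, and the CD206neg libraries at 0.338 to 3.35 CPM for Fcna and 5.38 to 19.1 CPM for Fcnb.

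At this depth only Fcna was read in the CD206+ libraries, while both ficolin genes were read in the CD206- libraries. Bulk reads at E10.5 do not show whether any cell changed from one gene to the other. Fcna made up all ficolin reads in CD206+ cells, 1268 of 1268, 1650 of 1650 and 1978 of 1978, with lower exact binomial 95% limits of 99.7%, 99.8% and 99.8%. In CD206- cells its share was 17.5% in replicate 1 (21 of 120 reads, exact 95% interval 11.2 to 25.5%), 21.1% in replicate 2 (58 of 275, 16.4 to 26.4%) and 1.74% in replicate 3 (6 of 345, 0.641 to 3.75%). The interval of the CD206- library of replicate 3 did not overlap those of replicates 1 and 2, which overlapped each other. Fcnb reads outnumbered Fcna reads in the CD206- libraries by 4.71, 3.74 and 56.5 times in replicates 1, 2 and 3.

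**Figure D2:**
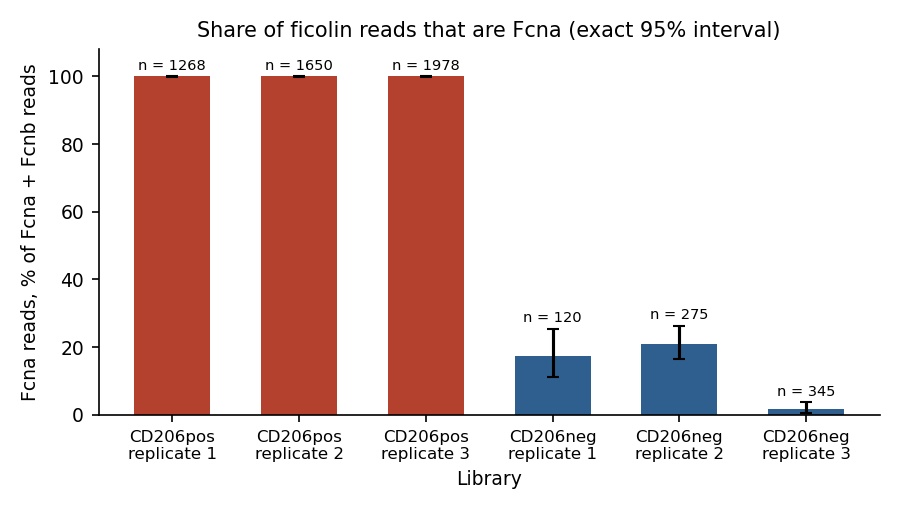
Percent of Fcna plus Fcnb reads that are Fcna in each library, with CD206pos bars left of CD206neg bars and exact binomial 95% intervals. All CD206pos bars stand at 100%, and the CD206neg bars at 17.5, 21.1 and 1.74%.

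Per kilobase of exon, the scale on which different genes can be set side by side, Fcna stood at 69.4 ± 13.4 CPM per kb in CD206+ cells and 1.17 ± 1.14 in CD206- cells (SD, n = 3 each). Fcnb stood at 0 CPM per kb in CD206+ cells and 9.21 ± 5.12 in CD206- cells. Fcna in CD206+ cells was therefore 7.53 times as high per kb as Fcnb in CD206- cells, and both ficolins together reached 69.4 CPM per kb in CD206+ cells and 10.4 in CD206- cells. The levels varied among themselves by unequal amounts. The coefficient of variation was 19.3% for Fcna in CD206+ cells, 96.9% for Fcna in CD206- cells and 55.5% for Fcnb in CD206- cells. On the same per-kb scale, Fcna was above 92.0% of tested genes in CD206+ cells and above 23.4% in CD206- cells, and Fcnb was above 60.8% of them in CD206- cells.

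A pair of counts places these differences among all genes. Of 7884 tested genes whose CD206- mean was at or above that of Fcnb, 10 (0.127%) had no read in any CD206+ library. They included, beside Fcnb, the stem cell factor receptor gene Kit, the calprotectin subunits S100a8 and S100a9, and Ms4a3, a membrane protein of granulocyte and monocyte precursors. Of 2629 tested genes whose CD206+ mean was at or above that of Fcna, 6 had a CD206- mean under 10% of it, and Fcna had the smallest such ratio, 1.69%. Both ficolins were chosen for such a difference, and each cutoff is a ficolin's own mean. The counts and the rank of Fcna are therefore a description only.

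Mrc1, which encodes the antigen used for sorting, had 1455, 1789 and 1503 CPM in CD206+ cells, against 51.5, 118 and 111 CPM in CD206- cells, so the CD206- mean was 5.92% of the CD206+ mean. Fcna did not keep a fixed ratio to it. There were 5.32, 5.27 and 7.60 Fcna reads per 100 Mrc1 reads in the CD206+ libraries of replicates 1, 2 and 3, against 2.22, 2.83 and 0.303 in the CD206- libraries. Every CD206- ratio was below every CD206+ ratio, and that of replicate 3 was the lowest. For the other 12 tested genes of a list of resident macrophage markers, the CD206- mean ran from 0% of the CD206+ mean, for the transcription factor Spic with no CD206- read, to 68.8% for Id3. It was 1.22% for the folate receptor Folr2, on 2 CD206- reads, 2.12% for the hyaluronan receptor Lyve1, 4.93% for the phosphatidylserine receptor Timd4, 18.3% for the scavenger receptor Stab1, 35.9% for Vcam1 and 44.6% for Nr1h3. Whether CD206+ cells carried over in the sort account for the CD206- Fcna reads was not tested.

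Across the 12668 tested genes, edgeR's quasi-likelihood test with Benjamini-Hochberg adjustment called 617 (4.87%) at an adjusted p under 0.05, 376 (2.97%) higher and 241 (1.9%) lower in CD206+ cells. When libraries were scaled by totals alone, the split was 273 higher and 284 lower. The count fell to 238, 355, 272, 190 and 319 without the CD206+ library of replicate 2, that of replicate 3, or the CD206- library of replicate 1, 2 or 3, and to 307, 3 and 153 without both libraries of replicate 1, 2 or 3.

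Markers of other cell types moved with the populations. Of a list of 20 granulocyte and monocyte precursor genes, 10 were tested, 7 were called lower in CD206+ cells and none was called higher. Among the tested genes only Mmp9 went the other way, with 24.6 CPM in CD206+ cells and 8.85 CPM in CD206- cells. Its groups did not overlap, and it did not pass (edgeR adjusted p = 0.086). The summed level of the list was 141 to 180 CPM in CD206+ cells and 2026 to 3076 CPM in CD206- cells, and 11 of its genes, among them S100a8, S100a9 and Ms4a3, had no read in CD206+ cells. Of those 11, the late neutrophil genes Chil3, Cd177, Retnlg and Ly6g had none in CD206- cells either, and the granule protease gene Ctsg had 2. Of a list of 18 resident macrophage genes, 13 were tested, 9 rose and none fell, with a summed level of 3527 to 4686 CPM in CD206+ cells and 329 to 529 CPM in CD206- cells. The 9 and the sums include Mrc1, whose antigen set the sort, at 1455 to 1789 CPM in CD206+ cells. Vsig4 and Clec4f of this list, which are Kupffer cell genes, had no read in any library. Other genes of the list were read, such as Timd4, with 19.1 CPM in CD206+ cells and 0.942 CPM in CD206- cells. Cd5l had 3.72 CPM in CD206+ cells and 0.146 CPM in CD206- cells (edgeR adjusted p = 0.101). Without both libraries of replicate 2, none of the precursor genes passed in edgeR, with 9 at an unadjusted p under 0.05, and of the resident macrophage genes Gas6 and Pf4 passed. Without both libraries of replicate 3, 3 precursor genes passed, Mpo, Prtn3 and S100a8. Of 6 stem and progenitor genes, 5 fell, with a sum of 22.9 to 53.1 CPM in CD206+ cells and 654 to 925 CPM in CD206- cells. The 5 became 2 without the CD206- library of replicate 1 or 2, 3 without both libraries of replicate 3, and 1 (Kit) without both of replicate 2. Csf1r, the gene whose promoter drives the GFP, averaged 2280 ± 614 CPM in CD206+ cells and 1598 ± 157 CPM in CD206- cells (SD, n = 3 each; edgeR adjusted p = 0.226), and passed without the CD206+ library of replicate 1 (0.0413). The part of these markers in the ficolin difference was not tested. Hepatocyte genes, of interest because liver makes ficolin A, summed to 18.7 to 33.3 CPM in CD206+ cells and 8.67 to 11.0 CPM in CD206- cells, none of the 2 tested passed, and Alb, encoding albumin, had no read in any library. Most of that sum was Trf, encoding transferrin, with 22.3 CPM in CD206+ cells and 7.75 CPM in CD206- cells (edgeR adjusted p = 0.0526). Its groups did not overlap, and it passed with no filter and without the CD206+ library of replicate 1. Afp, encoding alpha-fetoprotein, averaged 2.74 CPM in CD206+ cells and 1.66 CPM in CD206- cells (edgeR adjusted p = 0.873).

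Mpo, which encodes myeloperoxidase of the primary granules, had 22.3, 28.5 and 3.29 CPM in CD206+ cells, against 1493, 1972 and 2277 CPM in CD206- cells (log2 fold change -6.73 ± 0.71 SE, edgeR adjusted p = 0.0020, or 0.0811 without both libraries of replicate 2). The CD206- libraries held 3.61, 6.36 and 8.38 Fcnb reads for every 1000 Mpo reads in replicates 1, 2 and 3. The CD206+ libraries together held 922 Mpo reads and 0 Fcnb reads. At the ratio of all CD206- libraries together, 6.42 per 1000, 5.92 Fcnb reads would go with 922 Mpo reads. Whether that ratio holds in CD206+ cells was not tested. S100a8 had 0 reads in CD206+ cells and 22.7, 154 and 152 CPM in CD206- cells, and Ms4a3 had 0 reads in CD206+ cells and 5.11, 29.9 and 19.5 CPM in CD206- cells. For these 2 genes, as for Fcnb, the CD206- library of replicate 1 was the lowest.

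Complement genes ranged from no reads at all to abundant C1q. Of 54 complement genes, 37 had at least 1 read and 23 were tested. Of the 23, 6 rose and 3 fell in CD206+ cells and 14 did not pass. Over all tested genes, 2.97% were called higher and 1.9% lower. The median log2 fold change of the 23 was 0.41, against -0.0043 over all tested genes. Without both libraries of replicate 2 none of the 23 passed in edgeR, with 11 at an unadjusted p under 0.05, and 5 passed without the CD206+ library of replicate 2, the CD206- library of replicate 2 or both libraries of replicate 3.

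Among the other recognition molecules of the lectin pathway, the mannose-binding lectins Mbl1 and Mbl2, the collectin Colec10 and the surfactant proteins Sftpa1 and Sftpd had no read in any library. Colec11 had 10 reads in 1 CD206+ library and 9 in 1 CD206- library. Colec12, a membrane-bound scavenger collectin, had 62.3, 92.6 and 74.3 CPM in CD206+ cells, against 3.64, 12.7 and 18.2 CPM in CD206- cells. It rose with a log2 fold change of 2.73 ± 0.50 (SE, edgeR adjusted p = 0.0199), and the groups did not overlap. This call was lost without the CD206+ library of replicate 2 (adjusted p = 0.102) or of replicate 3 (0.0607), without the CD206- library of replicate 2 (0.11), and without both libraries of replicate 2 (0.286) or replicate 3 (0.0709).

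The ficolin-associated proteases were near the limit of detection. Masp1 had 0, 16 and 0 reads in CD206+ cells, against 0, 0 and 5 in CD206- cells. Masp2, which cleaves C4 and C2, had 2, 0 and 19 reads in CD206+ cells, against 1, 15 and 9 in CD206- cells. Neither had enough reads to test. Of the proteins they act on, C4a had no read, C4b had 10 reads in CD206+ cells and 0 in CD206- cells, and C2 averaged 0.706 CPM in CD206+ cells and 0.528 CPM in CD206- cells (edgeR adjusted p = 0.909). C3, the central component, had 0, 0 and 1.10 CPM in CD206+ cells, against 4.57, 10.1 and 15.2 CPM in CD206- cells. Its groups did not overlap, and it did not pass the test (log2 fold change -4.73 ± 1.38, edgeR adjusted p = 0.106), though it did without the CD206+ library of replicate 3 (0.0154), within a range of 0.00144 to 0.423 over all alternatives run.

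The classical pathway's recognition molecule C1q, which like the ficolins has a collagen-like stalk, was abundant in both populations and rose in CD206+ cells. C1qa averaged 772 ± 120 CPM in CD206+ cells and 144 ± 27.7 CPM in CD206- cells, C1qb 3207 ± 244 CPM in CD206+ cells and 1029 ± 107 CPM in CD206- cells, and C1qc 1659 ± 178 CPM in CD206+ cells and 436 ± 60.9 CPM in CD206- cells (SD, n = 3 each). Their log2 fold changes were 2.42 ± 0.19, 1.64 ± 0.13 and 1.93 ± 0.15 (SE), with edgeR adjusted p between 0.00084 and 0.00088. These were smaller than the log2 ratio of 5.89 for Fcna, a difference that was not tested. Without both libraries of replicate 2 their adjusted p ranged between 0.0753 and 0.0757. Per kb, C1qa stood at 742 in CD206+ cells and 139 CPM per kb in CD206- cells, above both ficolins. Of the C1q proteases, C1ra averaged 0.874 CPM in CD206+ cells and 0.611 CPM in CD206- cells (edgeR adjusted p = 0.934), and C1rb, C1s1 and C1s2 had no read.

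Of the alternative pathway, properdin (Cfp), which stabilises its convertase, averaged 200 ± 26.3 CPM in CD206+ cells and 167 ± 17.9 CPM in CD206- cells (edgeR adjusted p = 0.472), and the terminal components Hc, C7, C8a and C8b had no read. Of the 3 anaphylatoxin receptor genes, 2 rose. C5ar1 averaged 511 ± 21.9 CPM in CD206+ cells and 113 ± 28.5 CPM in CD206- cells (log2 fold change 2.18 ± 0.19, edgeR adjusted p = 0.0011). C3ar1 averaged 967 ± 182 CPM in CD206+ cells and 292 ± 53.1 CPM in CD206- cells (1.73 ± 0.19, 0.0023). Both missed the threshold without both libraries of replicate 2, at 0.0881 for C5ar1 and 0.0948 for C3ar1. C5ar2 did not pass, with 11.4 ± 2.23 CPM in CD206+ cells and 3.50 ± 1.90 CPM in CD206- cells (1.70 ± 0.52, 0.121).

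Cd93, a C-type lectin-like protein of early haematopoietic and endothelial cells, fell, with 2.72 ± 0.54 CPM in CD206+ cells and 16.3 ± 6.14 CPM in CD206- cells (-2.58 ± 0.43, edgeR adjusted p = 0.012). Itgb2, the shared beta subunit of complement receptors 3 and 4, fell by 0.59 ± 0.12 on the log2 scale, with 187 ± 2.92 CPM in CD206+ cells and 281 ± 12.9 CPM in CD206- cells (0.032). Clu, encoding clusterin, an inhibitor of the terminal complex, had 6.19 ± 1.63 CPM in CD206+ cells and 20.5 ± 8.57 CPM in CD206- cells (-1.73 ± 0.40, 0.0455). The Clu call was lost without any single library (0.0822 to 0.167) and without both libraries of any replicate number (0.18 to 0.196). Cd93 lost its call without the CD206+ library of replicate 2 (0.0663), the CD206- library of replicate 2 (0.0655) or 3 (0.0603), or both libraries of replicate 1, 2 or 3 (0.0505, 0.205 and 0.108). Itgb2 lost it without any single library but the CD206+ library of replicate 1 (0.0869 to 0.112) and without both libraries of any number (0.0945 to 0.298).

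**Figure D3:**
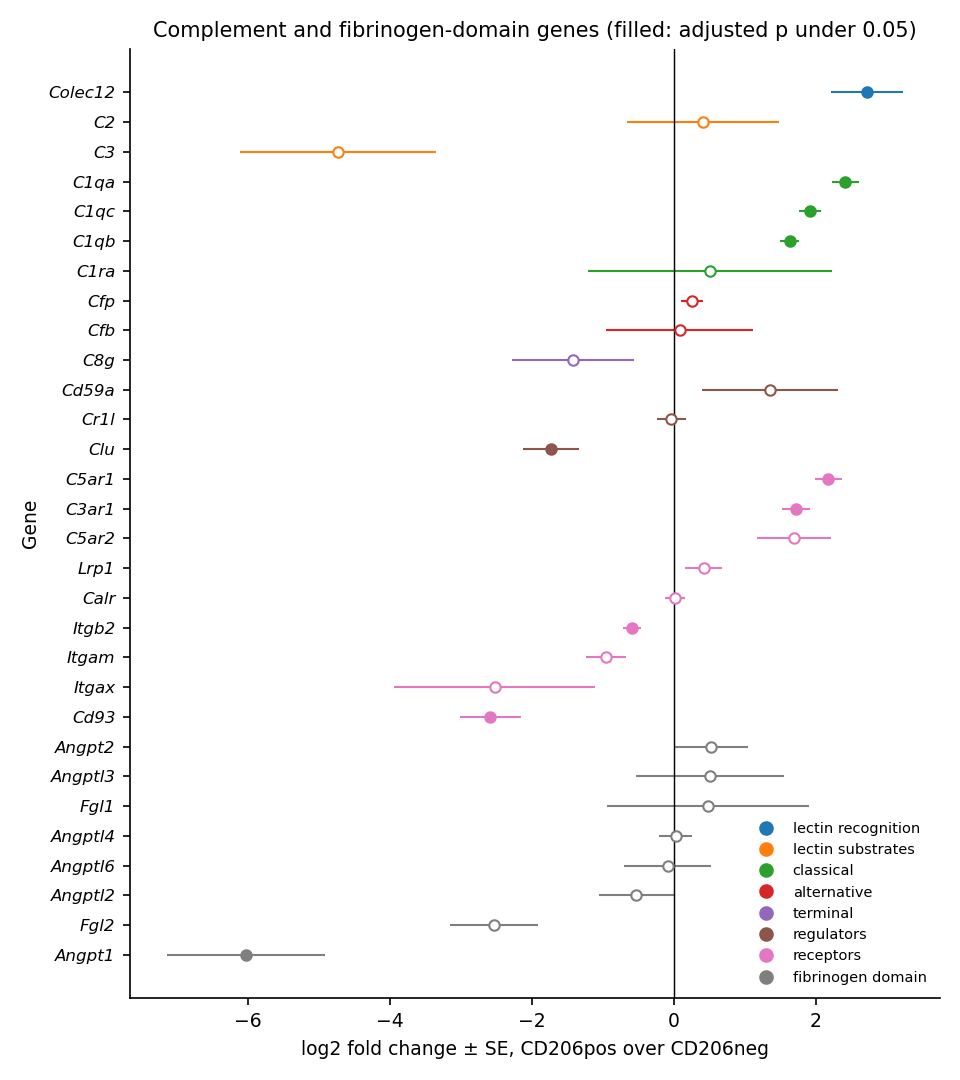
Log2 fold change ± SE, CD206pos over CD206neg, of tested complement and fibrinogen-domain genes, 1 complement gene left out, grouped by colour. Filled points have an edgeR adjusted p under 0.05; C1qa, C1qb, C1qc, C3ar1, C5ar1 and Colec12 lie right of 0, and Angpt1, Cd93, Clu and Itgb2 left of it.

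Of 20 other genes with a fibrinogen-like domain, 15 had a read, 8 were tested, none rose and 1 fell, against 4.87% called over all tested genes, and 2 were at an unadjusted p under 0.05. Their median log2 fold change was -0.03. The one was Angpt1, a ligand of the endothelial receptor Tie2, with 0, 0 and 1.39 CPM in CD206+ cells, against 30.8, 38.6 and 22.9 CPM in CD206- cells (edgeR adjusted p = 0.0199). It missed the threshold without the CD206+ library of replicate 2 (0.066), the CD206- library of replicate 1 (0.0774), 2 (0.117) or 3 (0.0541), and both libraries of replicate 1 (0.103) or 2 (0.228). Fgl2, a membrane-bound prothrombinase, had 1.95, 5.03 and 11.7 CPM in CD206+ cells, against 19.4, 37.9 and 50.8 CPM in CD206- cells. Its groups did not overlap, with a log2 fold change of -2.53 ± 0.62 (SE, edgeR adjusted p = 0.0587). It passed without the CD206+ library of replicate 3 (0.033), within a range of 0.000332 to 0.42 over the alternatives. The fibrinogen chain genes Fga, Fgb and Fgg had no read in any library.

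The neighbourhood of each gene was examined because position played no part in choosing them. Within 100 kb of Fcna lay 19 genes, of which 9 had no read and 7 were tested, and 1 of the 7 was called, against 4.87% of all tested genes. This was Tmem141 (ENSMUSG00000026939.12, chr2:25620067-25622005, minus strand), which encodes a small membrane protein and starts 2660 bases beyond the 3′ end of Fcna. Tmem141 had 43.7, 29.8 and 41.4 CPM in CD206+ cells, against 7.72, 7.23 and 8.67 CPM in CD206- cells. All CD206+ libraries were higher, 4.87-fold in the means (log2 fold change 2.28 ± 0.27 SE, edgeR adjusted p = 0.0026). Its exons share no base with Fcna or Fcnaos. The adjusted p was 0.0836 without both libraries of replicate 2 and 0.0511 without those of replicate 3. The other 6 tested neighbours had log2 fold changes between -1.05 and 0.20. Within 100 kb of Fcnb lay 4 genes, none with enough reads to test, and 2 of them had no read.

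**Figure D4:**
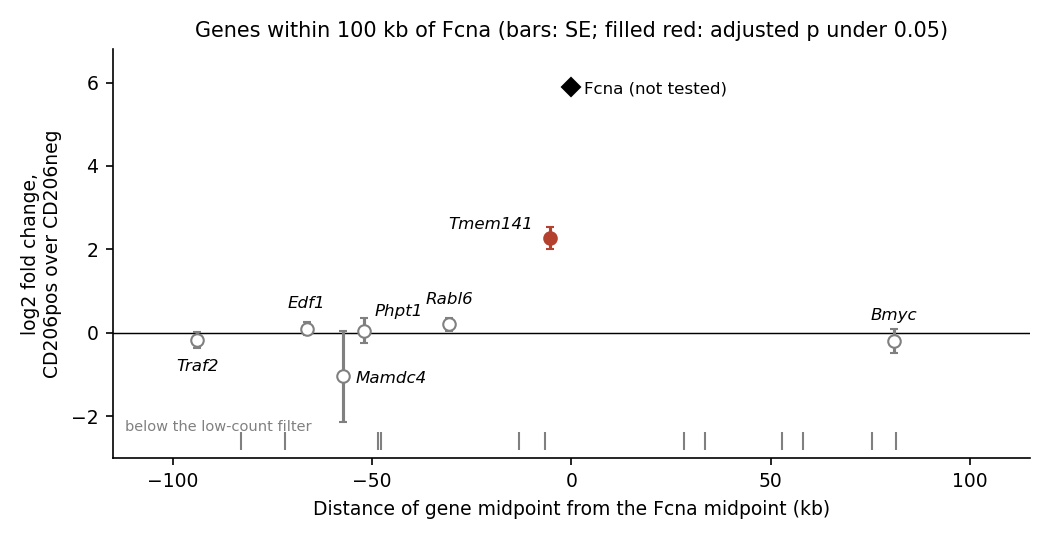
Log2 fold change, CD206pos over CD206neg, with SE bars, of the tested genes within 100 kb of Fcna against the distance of their midpoints in kb, with Fcna's ratio of means for scale. Tmem141, at 2.28 on the log2 scale, is the one called gene beside Fcna, and the other 6 lie between -1.05 and 0.20.

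The genes whose pattern was most like each ficolin were ranked by the root mean square difference of log2 CPM, centred on the gene's own mean, over the 6 libraries, which share depth and the sort. Since the difference between populations dominates this measure, no test is given. For Fcna the nearest was Enpp2 (autotaxin, which makes lysophosphatidic acid), at a difference of 0.94, with 6.73 ± 3.24 CPM in CD206+ cells and no read in CD206- cells. The chemokine gene Pf4 followed at 1.11, with 153 ± 4.92 CPM in CD206+ cells and 6.76 ± 1.53 CPM in CD206- cells. Tmem82, Sema6d, Lyve1, Gas6, Fxyd2 and Ccl12 stood between 1.14 and 1.30. The better expressed of these were Gas6, a bridging ligand for uptake of dying cells, with 559 ± 83.7 CPM in CD206+ cells and 28.3 ± 5.13 CPM in CD206- cells, and Lyve1, with 131 ± 35.5 CPM in CD206+ cells and 2.77 ± 2.45 CPM in CD206- cells. Lyve1 had 0 reads in the CD206- library of replicate 3, the library in which Fcna was lowest too.

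Fcnb had closer neighbours in pattern. The nearest were Nrg1 (neuregulin 1, an ErbB ligand) at 0.32, with 0 reads in CD206+ cells and 17.4 ± 8.63 CPM in CD206- cells, and the tight junction gene Cldn15 at 0.33, with 0 reads in CD206+ cells and 9.66 ± 7.62 CPM in CD206- cells. Ms4a3 stood at 0.47 and Btla, an inhibitory receptor of lymphocytes, at 0.51. Cdh17, Gda, BC100530 and Cpa3, a mast cell protease, stood between 0.55 and 0.74. In CD206+ cells 7 of these 8 genes had no read, which fixes the CD206+ side of the pattern, and BC100530, which has close copies in the stefin A family and so an uncertain count, had 7.

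**Figure D5:**
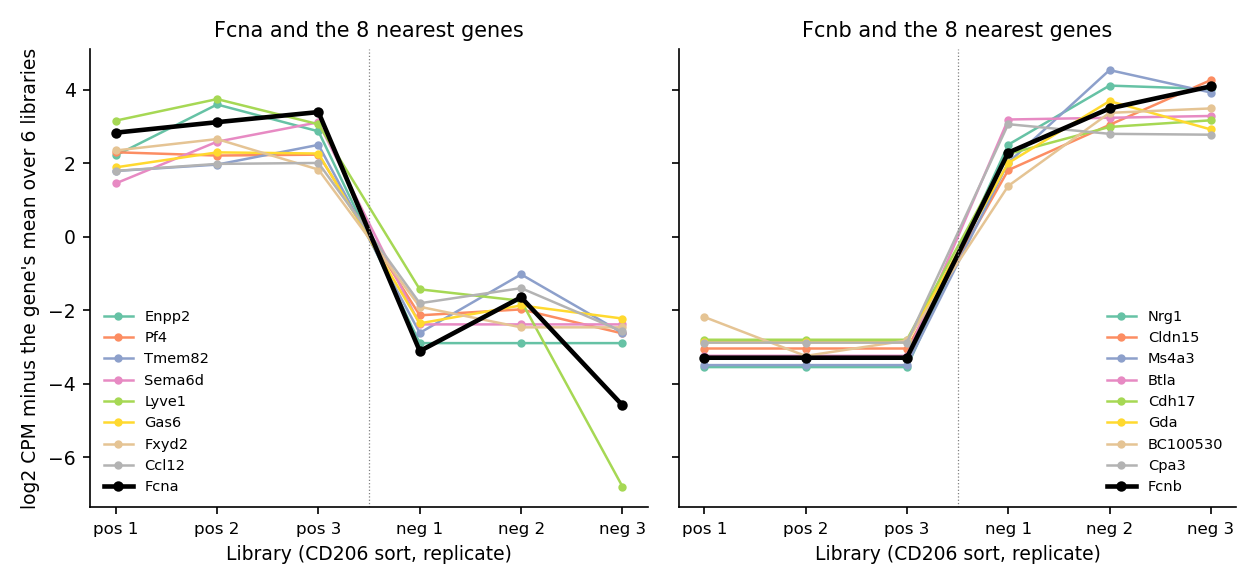
Log2 CPM minus each gene's mean over 6 libraries for Fcna (left panel, black) and Fcnb (right panel, black) with the 8 genes nearest to each in colour, and CD206pos libraries left of CD206neg libraries on the horizontal axis. Fcna is lowest in the CD206neg library of replicate 3, and the genes like Fcnb lie level at the bottom in all CD206pos libraries.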

How the data were processed

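The 6 deposited tables hold raw read counts per gene, 1 per library, with exon length in bases. Per the file headers, the authors counted reads with featureCounts 1.5.2, and the submitters' processing notes name FastQC, STAR 2.3, Subread and mm10 (GRCm38.p5). The headers give no option for strand or multiple mapping. Of 51912 identifiers, 51633 matched a GENCODE M21 symbol, which is the source of names and transcripts. Fcna and Fcnb, and the gene lists, were chosen with earlier results of these data known.

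The test was that of edgeR 4.0.16, run under R 4.3.3 (quasi-likelihood, filterByExpr, TMM, no covariate), which kept 12668 genes, both ficolins included. The script was tested on simulated data. CPM was computed here from the deposited counts and TMM-adjusted library totals. Alternatives were library totals, DESeq2 1.42.0 and its size factors, no filter, replicate number as a block, and leaving out single libraries or both of a number. Titles number the replicates without naming litters, so libraries were not paired. No 2 libraries were duplicates. Of the complement genes, 1 is counted but not reported here. Named genes were the sorted antigen, precursor and marker genes, called list members and those whose role is explained, neighbours within 100 kb, and the 8 genes nearest in pattern to each ficolin.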

Additional observations from a re-analysis of the deposited data

How the results depend on the processing

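Of the values for single named genes under these alternatives, 555 kept their direction and side of the threshold, 135 lost the call, 10 gained it and 0 changed direction. DESeq2 called 1210 genes (660 higher and 550 lower in CD206+ cells) and 5 complement genes lower. The fibrinogen-domain count was 2 with no filter, with replicate number as a block and with DESeq2. The replicate block called 699 genes. Deviations of same-numbered libraries correlated at 0.089, 0.0394 and 0.18, and 5 of 6 libraries correlated best with their own number, a hint of pairing that the labels do not settle. Leaving out 1 library, or both of 1 replicate number, gave 3 to 561 genes called, 2 to 355 higher and 1 to 206 lower; 0 to 8 complement genes, 0 to 6 higher and 0 to 2 lower; and 0 to 2 fibrinogen-domain genes. The Fcna log2 ratio lay between 5.22 and 7.01, the Fcnb bound between 6.70 (without both libraries of replicate 3) and 8.08, and the mean Fcna share in CD206- cells between 9.62 and 19.3%. Among named genes, the block lost the calls of Clu, Spic, Folr2, Fxyd2 and Sema6d and gained that of Fgl2 (adjusted p = 0.00771). With 6 Fcna reads in 1 CD206- library and 3 libraries a group, the size of either ficolin difference is loosely set.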
